A study of Mus musculus and Rattus norvegicus with 6 samples.

Results

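The neuronal miRNAs miR-128, miR-137, miR-138, miR-149, miR-153 and miR-218 were followed in the retina of mouse and rat, the neural tissue that senses light at the back of the eye. Their rows were found by number alone, with any letter, copy or arm, and the rule for finding rows used no measured value. This gave 15 mouse and 16 rat names, 31 of the 2679 rows of both count tables. Small RNA had been sequenced in 3 libraries of wild-type C57BL/6 mice (m1, m3 and m4) and 3 of wild-type Sprague Dawley rats (r1, r2 and r4), all aged 9 weeks and with no treatment named. Species, strain and anything done to only 1 of the tables cannot be told apart, and the protocol text names rat eyes for both species. The labels do not tie each library to its own animal, so a p-value here reflects how far the libraries scatter, which may be technical scatter.

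A miRNA is cut as a hairpin from a longer transcript and leaves a 5p and a 3p arm. The arm that is loaded into Argonaute guides it to messenger RNAs that pair with its seed, bases 2 to 8, and lowers their output. Most of the miRNAs described here are known from neurons. miR-128 dampens neuronal excitability through ion channel and ERK pathway targets. miR-137 balances proliferation against differentiation of neural progenitors and acts on synaptic vesicle genes. miR-138 lies in dendrites and limits the size of spines. miR-153 acts on genes of transmitter release such as Snap25. miR-218 is best known from motor neurons. miR-149 is less tied to neurons and is included with its number.

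All 15 mouse names matched a mature sequence in RefSeq (GRCm38.p6), and these lie on 9 hairpins. The leading arms are shown with the seed in capitals, because the seed sets which messages each can pair with.
mmu-miR-128-3p: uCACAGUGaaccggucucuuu
mmu-miR-137-3p: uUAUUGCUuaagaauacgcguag
mmu-miR-138-5p: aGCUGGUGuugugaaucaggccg
mmu-miR-149-5p: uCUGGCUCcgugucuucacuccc
mmu-miR-153-3p: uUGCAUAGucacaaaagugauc
mmu-miR-218-5p: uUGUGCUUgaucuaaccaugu

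No 2 of these 6 arms share a seed. Among the 1679 mature mouse names of the RefSeq table, none shares the seed of miR-128-3p, miR-137-3p, miR-138-5p, miR-149-5p or miR-153-3p. Only miR-7002-3p has the seed of miR-218-5p, and it had 0 counts in each mouse library. The seed letters of miR-128-3p recur shifted by 1 base in other names. Of these miR-27a-3p and miR-27b-3p are shown, with those letters in capitals, because of their high counts.
mmu-miR-27a-3p: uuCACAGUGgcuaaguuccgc
mmu-miR-27b-3p: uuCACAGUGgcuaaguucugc

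The arm miR-27b-3p had 143401, 179264 and 146496 counts in m1, m3 and m4, above miR-128-3p in each of these libraries.

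For miR-128, miR-138 and miR-218 there is a pair of hairpin copies, each of which makes the same leading arm and a minor arm of its own. Reads of the leading arm therefore cannot be assigned to a copy, and only the minor arms can. These are shown with their seeds in capitals, since the split between copies reported further on rests on them.
mmu-miR-128-1-5p: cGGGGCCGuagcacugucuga
mmu-miR-128-2-5p: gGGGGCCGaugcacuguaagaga
mmu-miR-138-1-3p: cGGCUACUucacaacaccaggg
mmu-miR-138-2-3p: gCUAUUUCacgacaccagggu
mmu-miR-218-1-3p: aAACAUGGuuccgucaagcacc
mmu-miR-218-2-3p: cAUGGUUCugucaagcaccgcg

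The miR-128 pair shares a seed and differs at 5 of 21 aligned bases. The miR-138 pair, aligned with a shift of 2 bases, matches at 18 of 20 and has different seeds. The miR-218 pair matches at 18 of 19 bases with a shift of 3 bases and also has different seeds. Rat sequences were not used here, so names and not sequences were compared between species.

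In the mouse genome (GRCm38), 6 of the 9 hairpins lie inside a protein-coding gene on the same strand, with no overlap to an annotated exon. Mir128-1 (chr1:128202361-128202430) lies in R3hdm1, and Mir128-2 (chr9:112118636-112118711) in Arpp21, which encodes a neuronal phosphoprotein. Mir218-1 (chr5:48223942-48224051) lies in Slit2 and Mir218-2 (chr11:35616816-35616925) in Slit3, genes of axon guidance ligands. Mir149 (chr1:92850378-92850443) lies in Gpc1, a heparan sulfate proteoglycan gene, and Mir153 (chr12:117250817-117250885) in Ptprn2, a gene of secretory vesicles. Mir137 (chr3:118433857-118433929), Mir138-1 (chr9:122682876-122682974) and Mir138-2 (chr8:94324311-94324381) overlap exons of the non-coding transcripts Gm26871, Gm47135 and C78859.

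Depth ran from 24169628 to 30514632 counts per library. The photoreceptor miRNAs miR-183-5p, miR-96-5p and miR-182-5p, which mark the labelled tissue, held 43.4% to 46.4% of mouse counts and 36.1% to 48.8% of rat counts. Library r1 stood apart from r2 and r4. In it the lens, cornea and epithelium list (4 of 5 markers listed in rat, none at 0) summed to 9409 CPM (counts scaled to an equal library size), against 1814 in r2, 1189 in r4 and 451.4 to 1380 in mouse. Nearly all of this was miR-184, at 9369 CPM in r1, while miR-205 was lower there (4.72 CPM) than in r2 and r4 (12.0 and 16.6 CPM). Results that lean on r1 are given with and without it. Between the species, the sums of 4 lists did not overlap, but the members of a list did not all go the same way. The muscle list (4 markers, with miR-208a-3p at 0 in each mouse library) summed to 642 to 883 CPM in mouse and 44.7 to 67.2 CPM in rat. Most of its mouse sum was miR-1a-3p (622 to 858 CPM, against 14.1 to 37.7 CPM for rat miR-1-3p), and miR-133a-3p was also lower in rat. The members miR-206-3p (27.1 to 32.6 CPM against 15.9 to 19.3 in mouse) and miR-208a-3p were higher in rat. The vessel and mesenchyme list (6 markers, none at 0) summed to 4304 to 5143 CPM in mouse and 7627 to 8065 CPM in rat. Its largest member, miR-143-3p, was higher in rat (5272 to 6466 CPM against 2607 to 3086), as was miR-145. The member miR-199a-3p was lower in rat (24.4 to 63.3 CPM against 81.8 to 98.1), and the rest overlapped. The list of glia and pigment epithelium (5 markers, none at 0) summed to 41481 to 47223 CPM in mouse and 53038 to 71148 CPM in rat, and that of red blood cells (3 markers, none at 0) to 104 to 110.2 CPM and 162 to 295 CPM. Of the glia and pigment epithelium list only miR-125b-5p overlapped between the species. The red blood cell sum was mostly miR-486, at 91.8 to 100.4 CPM in mouse (miR-486a-5p) and 161 to 291 CPM in rat. Its member miR-451a was lower in each rat library (0.662 to 3.56 CPM against 9.12 to 11.6). The member miR-144-3p was lower in r1 and r4 and higher in r2. The part of these cells in the results was not tested, and in bulk tissue fewer cells of a type and less RNA per cell cannot be told apart.

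As a set, the 6 miRNAs held a small share of the library, with a mean of 0.289% in both species. They made up 0.269%, 0.290% and 0.307% of all counts in m1, m3 and m4, and 0.258%, 0.318% and 0.290% in r1, r2 and r4. The SD was 0.0191% over the mouse libraries and 0.0303% over the rat libraries (n = 3). The make-up of that share was not the same. In mouse miR-128 was 73.2% ± 1.28 of it and miR-218 was 16.7% ± 1.06 (SD, n = 3). For rat the values were 39.0% ± 2.83 for miR-128 and 54.0% ± 3.49 for miR-218 (SD, n = 3). The share of miR-149 was 8.52% ± 0.216 (SD, n = 3) in the mouse libraries and 5.31% ± 0.303 (SD, n = 3) in the rat libraries. By contrast, miR-137, miR-138 and miR-153 each stayed under 1% on average in both species.

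**Figure D1:**
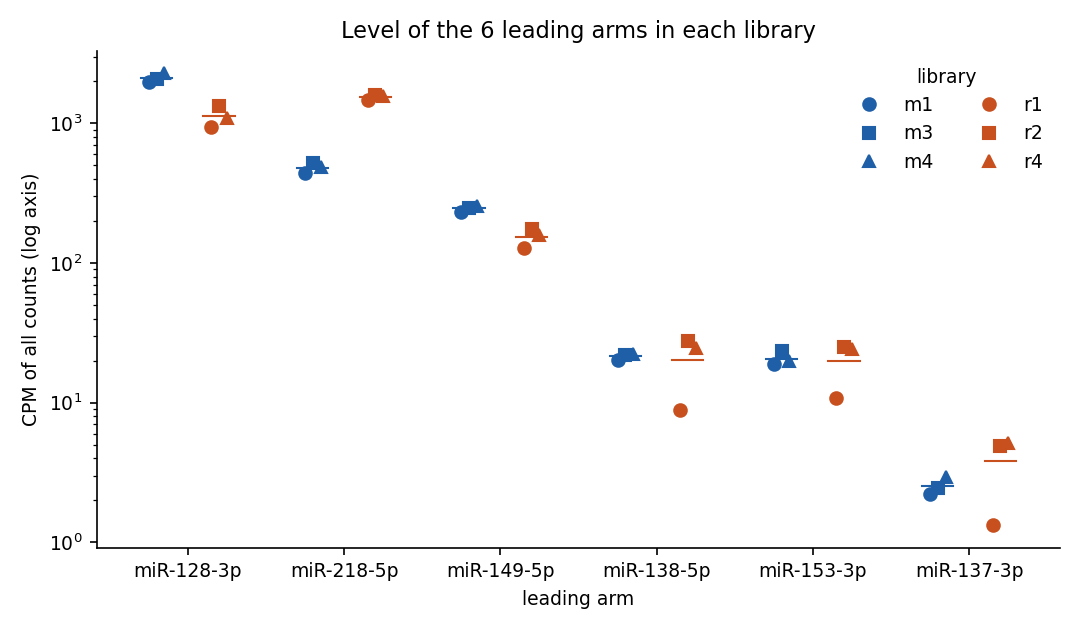
Level of each leading arm as CPM of all counts (log axis) in 3 mouse libraries (blue) and 3 rat libraries (orange), with a line at each species mean. miR-218-5p sits between 439 and 518 CPM in mouse and between 1476 and 1602 CPM in rat, and r1 is the lowest rat point for all 6 arms.

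The most abundant arm in mouse was miR-128-3p, with 54883, 63543 and 64361 counts in m1, m3 and m4, which put it at place 37 to 40 of 1915 names. Next came miR-218-5p with 12233, 15805 and 13696 counts, and miR-149-5p with 6506, 7620 and 7170. Far below were miR-138-5p with 564, 669 and 633 counts and miR-153-3p with 529, 714 and 556. These neighbours did not differ beyond their spread: miR-153-3p was above miR-138-5p in m3 and below it in m1 and m4. The least abundant was miR-137-3p, with 62, 75 and 82 counts, between place 412 and 434. Every other step in this order was seen in all 3 mouse libraries.

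In rat miR-218-5p came first. The arm listed there as rno-miR-218a-5p had 35668, 40522 and 44662 counts in r1, r2 and r4, at place 44 to 52 of 764 names. It lay above miR-128-3p, which had 22952, 33947 and 30962 counts, in all 3 rat libraries. Within a library, the ratio of miR-218-5p to miR-128-3p was 0.223, 0.249 and 0.213 in m1, m3 and m4, and 1.55, 1.19 and 1.44 in r1, r2 and r4. This ratio does not depend on how libraries are scaled to each other. Below them, miR-149-5p had 3093, 4416 and 4494 counts and miR-153-3p had 262, 629 and 688. By place, miR-138-5p stood between 250 and 279, miR-153-3p between 255 and 269, and miR-137-3p between 350 and 388. The order of miR-138-5p and miR-153-3p again differed between libraries, with miR-153-3p higher in r1 alone. In mouse these arms have 21 to 23 bases, so read counts there need no correction for length. The lengths of the rat arms were not examined, and how evenly different sequences are captured was not tested.

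Levels were then compared between species with edgeR's quasi-likelihood test over all miRNAs whose names could be joined, mouse miR-218 being paired with rat miR-218a. Libraries were scaled by TMM, a factor that centres most miRNAs between libraries, and p-values were adjusted by Benjamini-Hochberg over 399 miRNAs. A miRNA was called at an adjusted p under 0.05. Of the 15 joined members, 10 passed the filter on low counts, and of these 2 were called higher in rat, 2 lower and 6 were not called. Among all tested miRNAs 50.4% were called, 26.3% higher and 24.1% lower in rat, so the members' share is near the background. The median log2 difference was -0.33 over the tested members and 0.11 over all tested miRNAs.

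The largest rise among the leading arms was in miR-218-5p. Its level was 439.35, 517.95 and 485.96 CPM of all counts in m1, m3 and m4, and 1476, 1602 and 1584 CPM in r1, r2 and r4. All rat libraries lay above all mouse libraries, and within each species these levels were close together. After TMM scaling, which the test used, the rat levels were farther apart, at 3021, 1703 and 1823 CPM in r1, r2 and r4. The mouse levels were then 690 to 768 CPM, still below every rat library. The log2 difference was 1.58 ± 0.23 (SE), 2.99-fold, with an adjusted p of 0.00114. Ordered by this difference, it was number 16 from the top among the 160 miRNAs that reached 100 CPM in either species. Without r1 the log2 difference was 1.27.

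Its other rows were nearly empty. The minor arm miR-218-1-3p had 5, 3 and 4 counts in m1, m3 and m4, and its rat partner had 4, 2 and 5. The arm miR-218-2-3p had 0 counts in each mouse library and 4, 0 and 3 in r1, r2 and r4. The rat name rno-miR-218b, a further listed form, had 0 counts in each library, which allows up to 0.124 CPM in r1, 0.119 in r2 and 0.106 in r4. The reads behind the rise were those of the 5p arm, which both hairpins share.

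In contrast, miR-128-3p fell. It lay at 1971, 2082 and 2284 CPM of all counts in m1, m3 and m4 and at 949.6, 1342 and 1098 CPM in r1, r2 and r4, so that the lowest mouse library was above the highest rat library. After TMM scaling, which the test used, r1 was the highest rat library (1944 CPM, against 1427 in r2 and 1264 in r4). The log2 difference was -1.05 ± 0.19 (SE), 2.08-fold lower in rat, with an adjusted p of 0.00256. It was number 10 from the bottom of the same 160 miRNAs, and without r1 the difference was -1.26. Its minor arm miR-128-1-5p had 84, 65 and 70 counts in mouse and 36, 49 and 64 in rat. That difference was -0.61 ± 0.25 and was not called (adjusted p = 0.0770). It was called without r1 (-0.73, adjusted p = 0.0147) and with relaxed names, a wider join (-0.71, adjusted p = 0.0380).

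The arm miR-149-5p, from the intron of Gpc1, also fell. It was at 233.66, 249.72 and 254.40 CPM in mouse and 127.97, 174.57 and 159.37 CPM in rat, again with no overlap between the species. The log2 difference was -0.83 ± 0.17 (SE), 1.78-fold lower in rat, with an adjusted p of 0.00473. Within a library it kept a similar proportion to miR-128-3p: 11.9%, 12.0% and 11.1% of it in m1, m3 and m4, and 13.5%, 13.0% and 14.5% in r1, r2 and r4. The rat values were all slightly higher than the mouse values.

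**Figure D2:**
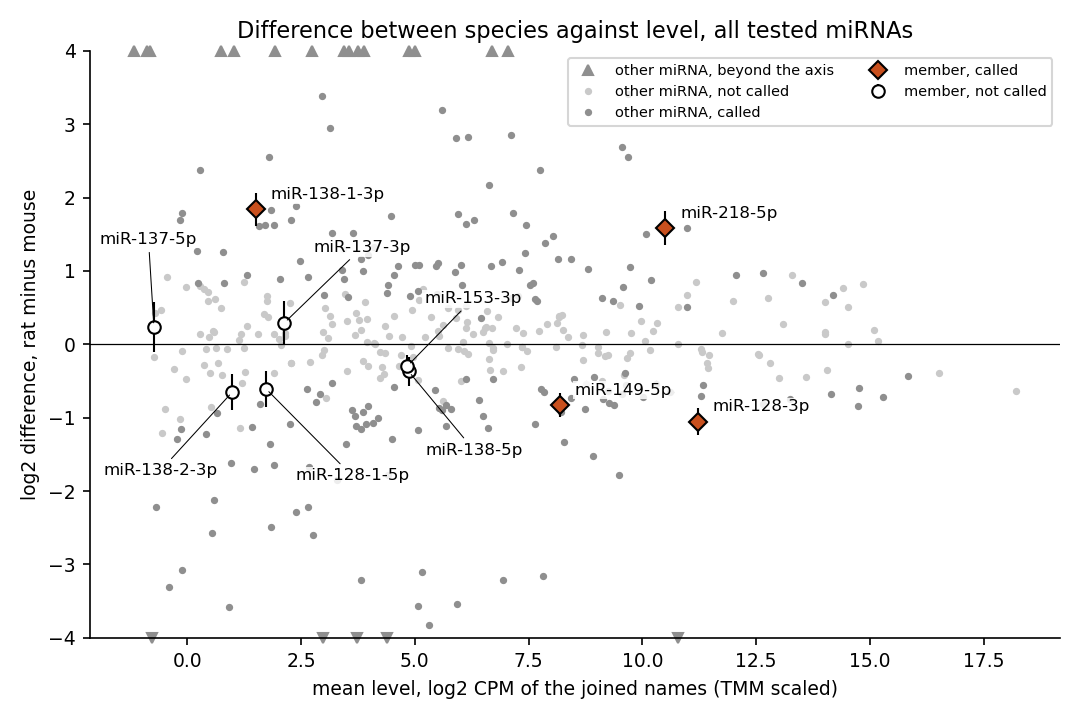
Log2 difference, rat minus mouse, against mean log2 CPM for the 399 tested miRNAs, with SE bars on the 10 members (diamonds called, circles not called). Triangles mark 15 miRNAs above and 5 below the axis limit of 4, and miR-218-5p at 1.58 and miR-128-3p at -1.05 stand among the abundant miRNAs at the right.

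The synaptic miRNAs miR-138-5p and miR-153-3p were not called. The CPM of all counts of miR-138-5p were 20.3, 21.9 and 22.5 in mouse and 8.85, 27.7 and 24.4 in rat. Thus in this scaling r2 and r4 were above every mouse library and r1 was below them. After TMM scaling all rat libraries (18.1, 29.4 and 28.1 CPM) lay below all mouse libraries (31.8 to 33.8 CPM). The log2 difference was -0.37 ± 0.20 (SE, adjusted p = 0.160) after TMM scaling and -0.08 with library totals of all names. It was 0.01 when libraries were scaled by the totals of the joined names. Without r1 it was -0.19 (adjusted p = 0.0965).

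The CPM of all counts of miR-153-3p showed the same arrangement, with 19.0, 23.4 and 19.7 in mouse and 10.8, 24.9 and 24.4 in rat. After TMM scaling all rat libraries (22.2, 26.4 and 28.1 CPM) again lay below all mouse libraries (29.7 to 34.7 CPM). The log2 difference was -0.29 ± 0.15 (SE, adjusted p = 0.150) after TMM scaling, -0.05 with library totals of all names, and 0.06 with the totals of the joined names. Without r1 it was -0.21 (adjusted p = 0.0960). No direction is given for either arm, since neither was called under any alternative and the size varied with the scaling. The sign turned only with the totals of the joined names, a scaling added after seeing the TMM factors. These libraries do not show that the levels are equal.

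For miR-137-3p, the rarest leading arm, the CPM were 2.23, 2.46 and 2.91 in mouse and 1.32, 4.90 and 5.14 in rat. The value of r1 was the lowest of all 6 libraries, and those of r2 and r4 were the highest. The log2 difference was 0.29 ± 0.30 (SE, adjusted p = 0.436). Without r1 it was 0.53 and was called (adjusted p = 0.0173), and without r4 it was 0.08 (adjusted p = 0.874). Its minor arm miR-137-5p had 9, 7 and 10 counts in mouse and 8, 12 and 12 in rat, and was not called (0.24 ± 0.34, adjusted p = 0.629).

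The members differed in where r1 lay among the rat libraries. In CPM of all counts, r1 had 0.264 times the mean of r2 and r4 for miR-137-3p, 0.340 times for miR-138-5p and 0.440 times for miR-153-3p. It had 0.766 times for miR-149-5p, 0.778 times for miR-128-3p and 0.926 times for miR-218-5p. The median over all tested miRNAs was 0.574, so the first 3 arms lay below it and the other 3 above. After TMM scaling the median was 1.06 and the same arms ran from 0.487 for miR-137-3p to 1.71 for miR-218-5p. The scaling thus decided whether r1 was the lowest or the highest rat library for miR-128-3p, miR-149-5p and miR-218-5p.

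Non-overlap between the species depended on the scaling as well. After TMM scaling, the libraries of the species did not overlap for 8 of the 10 tested members, against 62.2% of all tested miRNAs. In CPM of all counts this held for 4 members, against 53.1% of all tested miRNAs. Those 4 were the called members miR-128-3p, miR-149-5p, miR-218-5p and miR-138-1-3p.

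**Figure D3:**
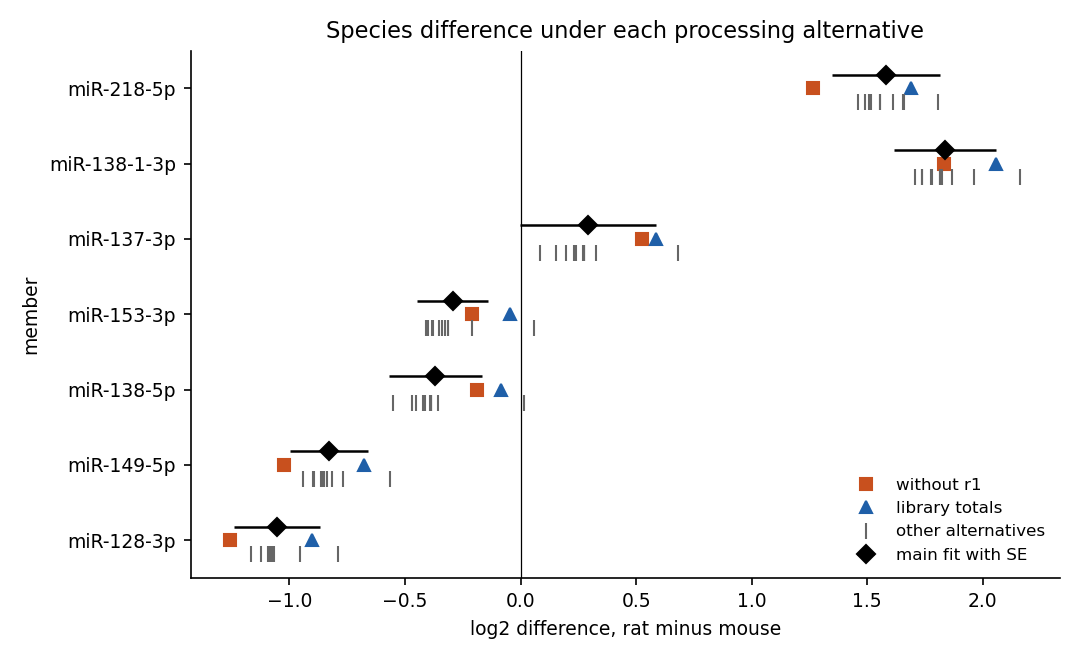
Log2 difference, rat minus mouse, of 7 members in the main fit (black diamonds with SE), without r1 (squares), with library totals (triangles) and under the other alternatives (ticks). The values of miR-218-5p and miR-138-1-3p lie to the right of 0 and those of miR-149-5p and miR-128-3p to the left of 0 throughout, while miR-138-5p and miR-153-3p reach 0.

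Reads listed under the minor arms of miR-138 were split differently between its copies in mouse and rat. How reads that fit both names were handled is not given, and rat sequences were not compared. The part of naming or read assignment in this split was not tested. The arm miR-138-1-3p had 25, 20 and 23 counts in m1, m3 and m4 and 51, 107 and 100 in r1, r2 and r4. It rose by 1.84 ± 0.22 on the log2 scale (SE, adjusted p = 0.000401), 3.57-fold. The arm of the other copy, miR-138-2-3p, had 46, 47 and 38 counts in mouse and 21, 37 and 28 in rat. Its difference was -0.65 ± 0.25 and was not called (adjusted p = 0.0633). It was called without r1 (-0.77, adjusted p = 0.0205) and with relaxed names (-0.76, adjusted p = 0.0389).

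Expressed as a share of both copies, copy 1 gave 35.2%, 29.9% and 37.7% of these 3p reads in m1, m3 and m4. The exact 95% binomial intervals were 24.2% to 47.5%, 19.3% to 42.3% and 25.6% to 51.0%. In rat the shares were 70.8%, 74.3% and 78.1% in r1, r2 and r4, with intervals of 58.9% to 81.0%, 66.4% to 81.2% and 70.0% to 84.9%. These intervals, here and below, cover counting error only. The mean was 34.3% ± 4.01 (SD, n = 3) for mouse and 74.4% ± 3.65 (SD, n = 3) for rat, a difference of 40.2 percentage points, and 3 of 3 rat libraries lay above every mouse library. With 3 libraries against 3, an exact two-sided permutation test cannot go below 0.10, which is the p found here (adjusted p = 0.20 over 2 pairs tested). Leaving out any 1 library, r1 included, left the difference between 38.0 and 42.0 percentage points. At least 61 counts stood behind each share.

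For miR-128 the copies were closer between the species. Copy 1 gave 82.4%, 91.5% and 86.4% of the 5p reads in m1, m3 and m4, and 92.3%, 90.7% and 91.4% in r1, r2 and r4. The counts of the minor copy, miR-128-2-5p, were 18, 6 and 11 in mouse and 3, 5 and 6 in rat. The difference was 4.72 percentage points (exact permutation p = 0.30, two-sided, n = 3 each). The copies of miR-218 had 2 to 8 reads together per library, too few to compare.

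**Figure D4:**
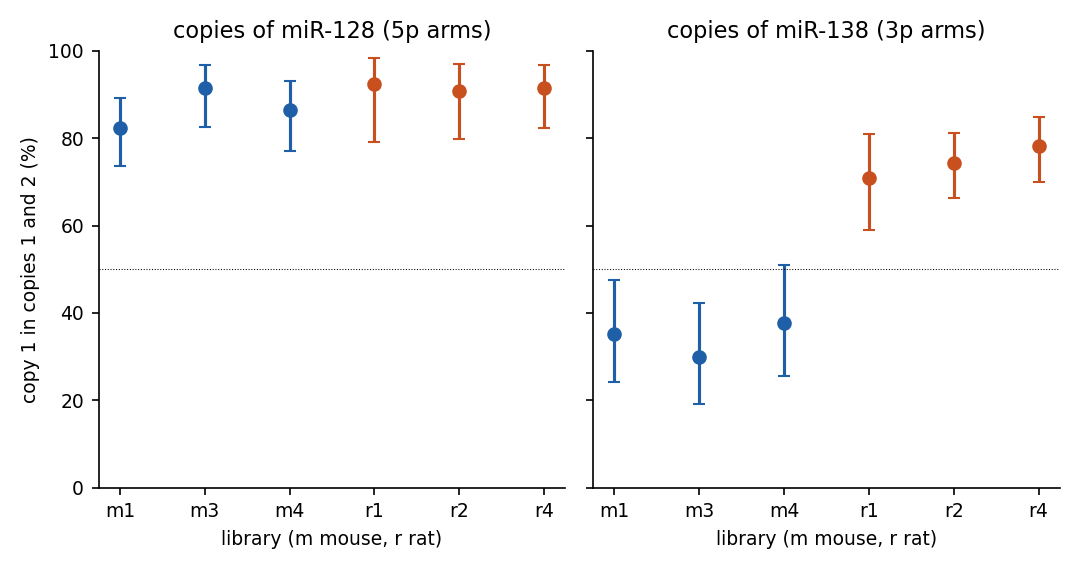
Share of copy 1 among the reads of both copies (%) for the 5p arms of miR-128 and the 3p arms of miR-138, by library, with exact 95% binomial intervals. For miR-138 the mouse points lie between 29.9% and 37.7% and the rat points between 70.8% and 78.1%, while for miR-128 all points lie above 82%.

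Use of the arms was compared with limma on the log2 ratio of 5p to 3p reads, the arms of copies being summed. Of 187 miRNAs tested, 23.0% were called, and of the 5 members tested 3 were called. For miR-138 the 3p arms were 11.2%, 9.10% and 8.79% of all its reads in m1, m3 and m4, and 25.2%, 17.1% and 15.7% in r1, r2 and r4. The rat shares were higher in 3 of 3 libraries. The log2 ratio of 5p to 3p fell by 1.13 ± 0.29 (SE, adjusted p = 0.0388). Leaving out r1 kept the call (-0.87, adjusted p = 0.0164), and leaving out m1, m3, m4, r2 or r4 lost it, with adjusted p between 0.0555 and 0.137. With each copy taken alone, the ratio differed by -2.24 for copy 1 (adjusted p = 0.00287) and by 0.23 for copy 2 (adjusted p = 0.724). These fits share the 5p reads, which cannot be divided between the copies.

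For miR-153 the minor 5p arm was almost absent in mouse, with 1, 0 and 0 counts in m1, m3 and m4, and had 2, 12 and 12 counts in r1, r2 and r4. As a share of both arms this was 1 of 1800 reads over the mouse libraries (0.0556%, exact 95% binomial interval 0.00141% to 0.309%). Over the rat libraries it was 26 of 1605 reads (1.62%, interval 1.06% to 2.36%). These intervals pool the reads of a species and leave out the scatter between libraries. Taken by library, intervals of the species overlapped, with 0.00478% to 1.05% in m1 and 0.0919% to 2.71% in r1. A count of 0 allows a share of up to 0.420% in m3 and 0.540% in m4. The ratio of 5p to 3p rose, with an adjusted p of 0.00732. Its size depended on the pseudocount, with a log2 difference of 3.64 at 0.5 and 1.54 at 5, both called.

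For miR-149 the minor 3p arm had 3, 2 and 1 counts in mouse and 0 in each rat library, where a count of 0 allows a share of up to 0.0970% in r1, 0.0679% in r2 and 0.0668% in r4. The mouse shares of 0.0461%, 0.0262% and 0.0139% lie under these limits, so no difference was detectable at this depth. The call at a pseudocount of 0.5 (1.39 ± 0.39, adjusted p = 0.0492) turned to -0.37 at a pseudocount of 5. It was also lost without m1, m3, r2 or r4 (adjusted p between 0.121 and 0.146). The arm ratios of miR-128 (0.41 ± 0.28, adjusted p = 0.337) and miR-218 (1.18 ± 0.57, adjusted p = 0.191) were not called, but that of miR-218 was called at a pseudocount of 5 (1.30, adjusted p = 0.0268) and for copy 1 on its own (1.70, adjusted p = 0.0276). The 3p arms of miR-218 had only 2 to 8 reads together per library, so those calls are not taken as a difference in arm use. The reads of miR-137 were below the minimum of 50 in r1, so its arms were not tested.

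The members also differed from each other in how they ran over the 6 libraries. Likeness was measured as the root mean square difference of log2 CPM, each miRNA centred on its own mean. Among the leading arms the closest pairs were miR-128-3p with miR-149-5p at 0.13 and miR-138-5p with miR-153-3p at 0.16. The farthest pair was miR-128-3p with miR-218-5p, at 1.31.

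Among 389 tested miRNAs outside the set, those closest to miR-128-3p were miR-92b-3p and miR-342-5p, at 0.10 each. For miR-149-5p they were miR-1843b-5p (0.05) and miR-541-5p (0.05), and for miR-218-5p miR-455-5p (0.11) and miR-375-3p (0.14). The closest to miR-138-5p were miR-337-5p (0.05) and miR-125b-5p (0.06), to miR-153-3p miR-1306-5p (0.05) and miR-301a-5p (0.08), and to miR-137-3p miR-487b-3p (0.12) and miR-107-3p (0.14). The level of miR-455-5p was 88.6, 86.6 and 79.6 scaled CPM in m1, m3 and m4 and 395, 197 and 193 in r1, r2 and r4, highest in r1 as miR-218-5p was after this scaling.

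Other neuronal miRNAs gave the setting for these differences. Of a list of 20, 16 could be joined and tested, of which 4 were higher in rat, 3 lower and 9 not called, with a median log2 difference of 0.01. The pan-neuronal miR-124-3p was lower in rat (-0.68 ± 0.14, adjusted p = 0.00494), as miR-128-3p was. Neither miR-7a-5p (0.0003 ± 0.32, adjusted p = 0.999) nor miR-129-5p (0.77 ± 0.39, adjusted p = 0.134) was called. The arms miR-129-1-3p (3.40 ± 0.16, adjusted p = 2.4e-06) and miR-129-2-3p (0.88 ± 0.15, adjusted p = 0.00223) were both among the 4 higher. Their rat levels were identical, at a mean of 1515 scaled CPM. The same rat reads thus stand under both names and entered the count and the median more than once. With library totals 5 of the list were called higher and 1 lower, beside 107 higher and 44 lower of all 399. Without r1, 6 were called each way, beside 293 called of all 413 tested there. In each of these 3 fits the list's share of calls, with both miR-129 3p arms counted, was near that of all miRNAs tested.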

How the data were processed

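Retinal small RNA of 3 mouse and 3 rat libraries was analysed. Per the labels' protocols, RNA was isolated with a miRNeasy kit and read on a HiSeq-2500. The authors deposited 1 table of raw counts for each species, by mature miRNA name. The sources used here do not give the trimming, aligner, annotation release or handling of reads that fit more than 1 name. Column names (m1, m3, m4; r1, r2, r4) show the species but could not be tied to the numbered samples.

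Names were joined without the species prefix (542), and 3 pairs of 218 with 218a were added (545). The test on counts used R 4.3.3 and edgeR 4.0.16 (filterByExpr, TMM on the joined totals, quasi-likelihood F test, species as the only term), with the SE taken as the size of the log2 difference divided by the square root of F. Arm ratios, log2((5p + 0.5)/(3p + 0.5)) with at least 50 reads of both arms in every library, were tested with limma 3.58.1. The share of copy 1 was tested by exact permutation (scipy 1.17.1) where both copies together had at least 10 reads in every library. CPM of all counts uses the full total of each table. DESeq2 1.42.0, other scalings, filters, joins and leaving out each library were alternatives. Scripts were tested on simulated data.

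The set of miRNA numbers, the lists and the alternatives were chosen with earlier results of these data known, although the rule that finds the rows uses only the number; scaling by the joined totals was added after seeing the TMM factors. Leading arms were given in full, and other rows where they had at least 10 counts in every library of a species or bore on an arm or copy. For likeness, the 2 closest miRNAs outside the set were named, and of the neuronal list up to 4 of the most abundant. Sequences are RefSeq's (GRCm38.p6) and hosts GENCODE M21's. No build is named for the count tables, and these coordinates describe the mouse reference only.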

Additional observations from a re-analysis of the deposited data

How the results depend on the processing

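The calls of miR-128-3p, miR-149-5p, miR-218-5p and miR-138-1-3p held under every alternative that gave a value (exact names leave out miR-218-5p). Their log2 differences ran from -1.26 to -0.79, from -1.02 to -0.56, from 1.27 to 1.81 and from 1.71 to 2.16. Across all miRNAs, library totals moved the median up by 0.22 and 70.9% of 151 calls were higher, and totals of the joined names moved it up by 0.33 and 74.9% of 171 calls were higher, against 52.2% of 201. With the latter scaling miR-138-5p was at 0.014 and miR-153-3p at 0.056, the other direction. Members called higher numbered 1 of 9 tested with exact names, which leave out miR-218-5p, beside 102 of all 398. Leaving out 1 library gave 2 to 4 of 11 or 12 members tested. All miRNAs called higher then ran from 78 (without m4) to 151 (without r1). Members called lower numbered 4 with relaxed names, and 2 to 4 when 1 library was left out. The upper end for the members was reached without r1 in both directions. There 12 members were tested and 293 of all 413 miRNAs were called, so the members' count rose with that of all miRNAs. With relaxed names 110 of all 420 were called lower. The value of miR-137-3p ran from 0.0831 to 0.53 when 1 library was left out. Arm calls over all miRNAs ran from 25 (without m1) to 82 (without r1), against 43. The arm ratio of miR-138 ran from -1.30 to -0.87 and that of miR-149 from 1.05 to 1.73 when 1 library was left out. At a pseudocount of 5, miR-149 was at -0.37 and miR-218 at 1.30. With each copy on its own, copy 2 of miR-128 was at -0.0828 and copy 2 of miR-138 at 0.23, while miR-218 was at 1.70 for copy 1 and -0.46 for copy 2. Apart from the absence of miR-218-5p with exact names, the causes of these changes were not tested. The combined share was 0.399% in mouse and 0.431% in rat over the joined names, and 0.522% and 0.491% without miR-183, miR-96 and miR-182. No paired analysis was possible because the columns cannot be tied to the numbered samples, and mice and rats share no animal. Depth limits the minor arms of miR-149, miR-153 and miR-218, which had at most 12 counts in a library. It also limits miR-137-5p (7 to 12 counts) and miR-128-2-5p (3 to 18 counts), on which the copy shares of miR-128 rest in part.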
